A study of Petunia x hybrida with 12 samples.

Results

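The comparison described here is that of mycorrhizal against control roots of the petunia wild type W115, and its members were chosen by genotype and tissue alone: 6 of the 12 root libraries of the series. In the 3 mycorrhizal libraries (titled +R.i) W115 plants (Petunia hybrida, wild type for RAM1) had been inoculated with the fungus Rhizophagus irregularis, and in the 3 control libraries plants of the same line had not. The other 6 libraries hold mycorrhizal and control roots of the mutant ram1-2, and are used below only to test whether a response of W115 differed from that of the mutant. All plants shared the pots of sand and unfertilised soil, the weekly nutrient solution and the harvest 15 days after inoculation, and the mycorrhizal plants were colonised from soil inoculum in a nurse plant system. A library comes from the roots of 1 replicate plant, of which about 100 mg were extracted, and it mixes colonised and uncolonised cells. W115 is a single inbred line, its reads were counted on the transcripts of the related species Petunia axillaris, and whether the control pots received uncolonised soil is not given in the sources used here. In such bulk samples, fewer cells of a type and less RNA per cell cannot be told apart. Of 32928 gene models in the deposited table, 21646 were tested, those whose mean was 10 total gene reads or more in mycorrhizal or in control roots.

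In arbuscular mycorrhiza a soil fungus grows into the root cortex and forms highly branched arbuscules inside cortex cells, which the plant surrounds with a membrane of its own. Across this membrane the plant takes up phosphate and ammonium from the fungus and gives fatty acids and sugars in return. Roots that lack phosphate switch on a separate household of genes: high-affinity phosphate transporters of the root surface, secreted acid phosphatases, enzymes that replace phospholipids with galactolipids, and SPX proteins, which sense the phosphate status of the cell. The comparison asks which plant genes and processes rise and which fall when the root is colonised.

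The libraries held 11067214, 12171742 and 12724542 total gene reads in mycorrhizal roots and 12317072, 12015130 and 12906761 in control roots. Levels are given as CPM, the usual scaling of the reads of a gene to the library total, here after TMM. The groups separated on the first principal component of all genes, which held 80.6% of the variance. The second (6.98%) set control replicate 1 (45.7) apart from control replicates 2 and 3 (−21.8 and −23.8). On it mycorrhizal replicate 3 (20.6) also lay apart from mycorrhizal replicates 1 and 2 (−12.75 and −8.02), by a smaller distance. Control replicate 1 also had the highest summed level of the 6 arbuscule genes described below, 48.2 CPM against 21.0 and 9.97 CPM in the other controls, where mycorrhizal roots had 1686, 1505 and 1694 CPM. The part of this low level in the results was not tested. Levels and calls of photosynthesis genes, a list taken as a check for shoot tissue, are given near the end.

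Colonisation moved a large part of the root transcriptome, and the falling part was nearly as large as the rising part. By edgeR's quasi-likelihood test with Benjamini-Hochberg adjustment (adjusted p below 0.05), 5457 genes passed, 25.2% of those tested: 2917 were higher (13.5%) and 2540 lower (11.7%) in mycorrhizal roots. At least 2-fold were 1337 higher (6.18%) and 943 lower (4.36%), and at least 5-fold were 662 higher (3.06%) and 169 lower (0.781%). These shares are the background against which counts in gene lists are read below, as is the median log2 fold change of all tested genes, −0.0090. M1 to M3 and C1 to C3 stand below for mycorrhizal and control replicates 1 to 3. They are named where a count in a gene list moved by over 1.5 times without one of them. Such moves in another alternative, as in the joint model of all 12 libraries, are named too. Moves in the fit with the replicate number as a block, which occurred in many lists, are not named. The order is whether more members were higher or lower. The replicates of the groups did not overlap in 9546 genes (44.1%), among them 2899 of the 2917 higher and 2532 of the 2540 lower genes. Nearly every called gene thus separates the groups. Where separation is stated below for called genes, it describes them and is no further support for the call.

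Rise and fall differed in shape. Of the genes that rose, 338 did so 32-fold or more and 92 of the 5-fold group had no read in any control library, whereas 8 genes fell 32-fold or more and 2 of the 5-fold group had no mycorrhizal read. Under 2-fold the numbers were alike, 1580 higher and 1597 lower. In control roots the median level was 37.6 CPM for the genes that fell, 12.3 CPM for those that rose and 15.0 CPM for all tested genes. Control levels are part of the comparison that made the calls. A gene that rose could also reach the read minimum through mycorrhizal roots alone, so selection favours this order. The summed level of all genes that rose was 233020 CPM in mycorrhizal and 105620 CPM in control roots, and that of all genes that fell was 131730 CPM in mycorrhizal and 244430 CPM in control roots. These medians and sums describe the calls and are no separate test. Without mycorrhizal replicate 2 the number of lower genes was 1393, without mycorrhizal replicate 1 it was 1672, and that of 5-fold lower genes was 98 without mycorrhizal replicate 2 and 95 without control replicate 1.

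**Figure D1:**
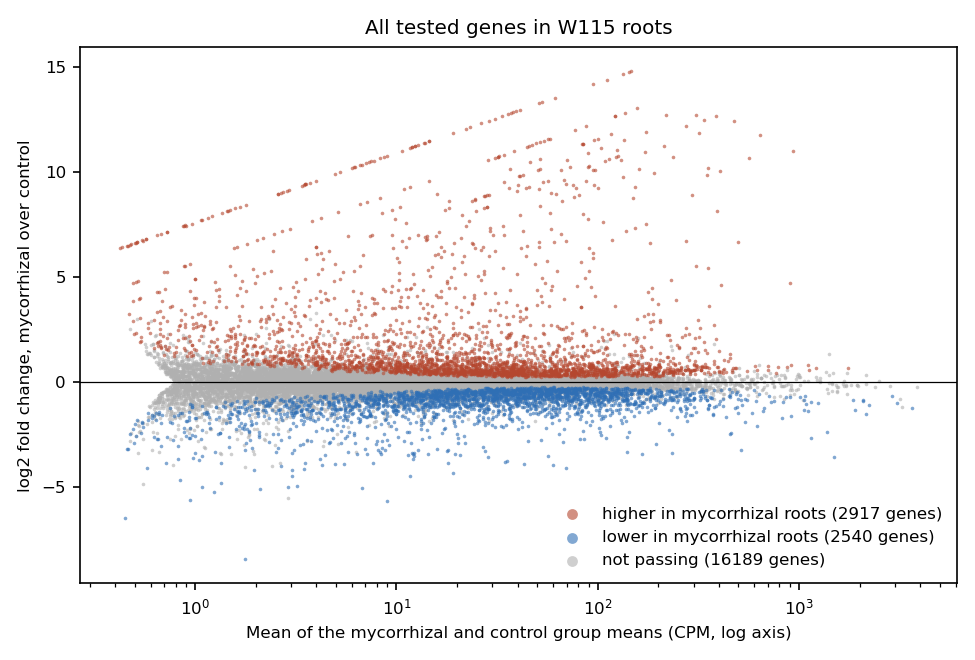
log2 fold change of mycorrhizal over control W115 roots (y axis) against the mean of the group means in CPM (x axis, log scale) for all 21646 tested genes; each point is a gene, coloured by the edgeR call (2917 higher, 2540 lower). Points above 5 are many and points below −5 few; the oblique lines at the top are genes with 0 to 3 control reads, whose fitted value depends on the prior count.

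Genes of the arbuscule and of fungal accommodation were higher in every mycorrhizal root than in any control root. Most were low or unread in control roots. VAPYRIN, described below, had a mean of 26.1 CPM there, above the control median of all tested genes (15.0 CPM). RAM1 (Peaxi162Scf00420g00650.1), a GRAS transcription factor required for arbuscule branching, had 114, 108 and 128 CPM in mycorrhizal roots, against 0.0808, 0.334 and 0.236 CPM in control roots (log2 fold change 9.01, SE 0.23, adjusted p = 3.89e-07). The phosphate transporter PT4 (Peaxi162Scf00618g00532.1), which takes up phosphate at the arbuscule, had 645, 543 and 621 CPM in mycorrhizal roots, against 25.9, 8.61 and 4.87 CPM in control roots (log2 fold change 5.52, SE 0.60, adjusted p = 7.09e-04). The groups were far apart in both genes, and control replicate 1 was the highest control for PT4. For STR (Peaxi162Scf00282g00221.1) and STR2B (Peaxi162Scf00378g00624.1), ABC transporters of the arbuscule membrane, mycorrhizal roots had 201, 201 and 221 CPM and 194, 179.8 and 227 CPM; the 3 control libraries together held 3 reads of STR and 12 of STR2B. RAM2 (Peaxi162Scf00129g00625.1), the acyltransferase that makes the lipid exported to the fungus, had 297, 284 and 278 CPM in mycorrhizal roots and no read in control roots, at least 3531-fold higher, set against a floor of 3 reads over the control group. The ammonium transporter AMT2 (Peaxi162Scf00341g00514.1) had 192, 152 and 193 CPM in mycorrhizal roots, against 0, 0.167 and 0.0785 CPM in control roots, a ratio of 2213-fold (95% counting interval 757 to 10735).

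The other STR2 copy was read in every control root. STR2A (Peaxi162Scf00286g00240.1) had 157, 146 and 154 CPM in mycorrhizal roots, against 21.9, 11.9 and 4.63 CPM in control roots (log2 fold change 3.57, SE 0.47, adjusted p = 0.00173), again highest in control replicate 1. Among genes that let the fungus enter the cell, VAPYRIN (Peaxi162Scf00575g00001.1) had 132, 145 and 148 CPM in mycorrhizal roots, against 37.2, 18.8 and 22.4 CPM in control roots (log2 fold change 2.44, SE 0.24, adjusted p = 4.73e-04). The exocyst subunits EXO70i (Peaxi162Scf00081g02225.1) and EXO84 (Peaxi162Scf00415g00042.1), of the complex that tethers secretory vesicles, rose as well (4.26, SE 0.26, adjusted p = 3.69e-05 and 4.85, SE 0.34, adjusted p = 7.47e-05). The microtubule-associated protein MAP70-5 (Peaxi162Scf00008g00212.1) had 36.7, 39.7 and 51.1 CPM in mycorrhizal roots, against 1.05, 0.334 and 0.550 CPM in control roots (log2 fold change 6.02, SE 0.30, adjusted p = 1.19e-05). No value of a mycorrhizal root fell within the control range in any of these genes. They are known marker genes of the symbiosis.

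**Figure D2:**
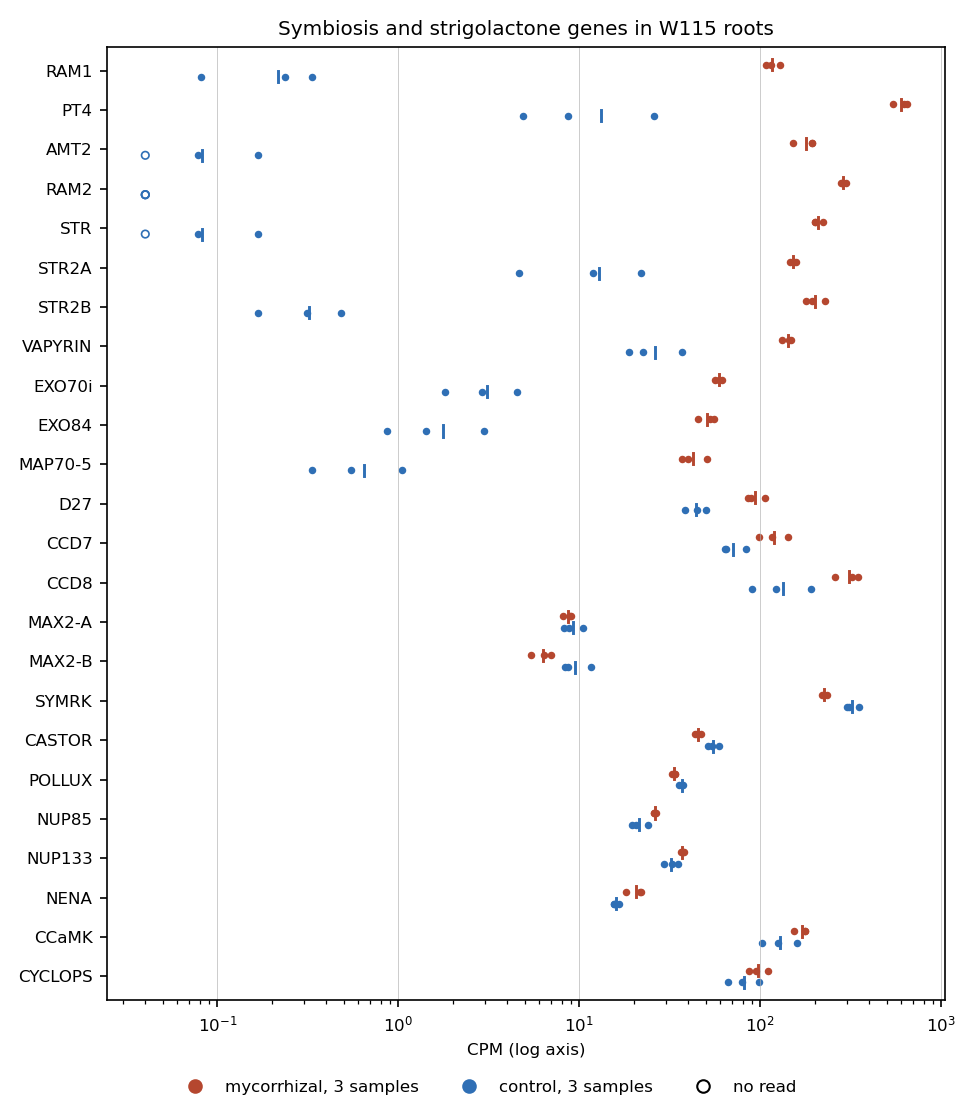
CPM (log axis) of 24 symbiosis and strigolactone genes in each W115 root library; points are samples, mycorrhizal above control, short bars the group means, and open points at the left edge libraries with no read. The arbuscule genes at the top are far apart in the groups, while signalling genes from SYMRK to CYCLOPS lie close together.

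The signalling genes that act before the fungus enters changed little. Of 8 genes of the common symbiosis pathway, 2 were lower by edgeR and 6 did not pass (median log2 fold change 0.23, with 1 to 2 higher without M2 or C1 or in the joint model, 1 lower without M1 to M3, C1 or C2, with DESeq2, with library totals only or without the filter and the order reversed in 1 of 14 alternatives). The receptor-like kinase SYMRK (Peaxi162Scf00703g00117.1) had 224, 233 and 220.2 CPM in mycorrhizal roots, against 352, 310.3 and 301 CPM in control roots (log2 fold change −0.51, SE 0.098, adjusted p = 0.00915), with no overlap of the groups. The ion channel gene CASTOR (Peaxi162Scf00883g00321.1) had 43.6, 44.8 and 47.2 CPM against 54.0, 59.4 and 51.7 CPM (log2 fold change −0.28, SE 0.086, adjusted p = 0.0484), a call lost in 9 of 14 alternatives, among them each of 5 in which a library other than control replicate 3 was left out. The nucleoporin gene NENA (Peaxi162Scf00074g01141.1) had 21.9, 18.1 and 21.6 CPM in mycorrhizal roots, against 15.5, 15.6 and 16.6 CPM in control roots, a separation of the groups that did not pass (log2 fold change 0.37, SE 0.11, adjusted p = 0.0531). CCaMK (Peaxi162Scf00647g00529.1), the kinase that decodes nuclear calcium spiking, had 176, 178 and 154 CPM against 159, 102 and 126 CPM, and its replicates overlapped (0.39, adjusted p = 0.122). CYCLOPS (Peaxi162Scf02295g00022.1), its phosphorylation target, also overlapped, with 86.3, 95.2 and 110.3 CPM against 98.2, 79.3 and 66.2 CPM.

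Genes for the synthesis of strigolactones, the root signals that activate the fungus, were higher in mycorrhizal roots in all 3 tested steps. D27 (Peaxi162Scf00165g00212.1), which isomerises beta-carotene, had 85.7, 88.8 and 106 CPM in mycorrhizal roots, against 44.6, 49.8 and 38.3 CPM in control roots (log2 fold change 1.08, SE 0.13, adjusted p = 0.00113). The cleavage dioxygenase CCD7 (Peaxi162Scf00377g00829.1) had 98.9, 117 and 142 CPM in mycorrhizal roots, against 83.0, 63.8 and 64.8 CPM in control roots (log2 fold change 0.76, SE 0.16, adjusted p = 0.0143). CCD8 (Peaxi162Scf00227g00714.1), the next enzyme, had 257, 323 and 347 CPM in mycorrhizal roots, against 191, 122 and 89.7 CPM in control roots (log2 fold change 1.20, SE 0.27, adjusted p = 0.0172). The groups did not overlap in D27, CCD7 or CCD8, though the highest control of CCD8, replicate 1, lay closest to the mycorrhizal range. CCD7 did not pass in 1 model of all 12 libraries, nor CCD8 without mycorrhizal replicate 2 or control replicate 2. The signalling F-box genes MAX2-A and MAX2-B did not pass, at −0.086 and −0.59 on the log2 scale (MAX2-B passed as lower in 1 model of all 12 libraries), and MAX1 did not reach the read minimum.

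Beside the rise of PT4, most other phosphate transporters of its family fell. Of 11 tested PHT1-type genes, 8 were lower, 1 was higher and 2 did not pass (median log2 fold change −1.91, with 2 higher without C1). The share of lower members was 72.7%, against 11.7% of all genes, and all 8 falls were at least 2-fold. The strongest called fall was in Peaxi162Scf00018g00203.1, with 33.9, 22.9 and 19.9 CPM in mycorrhizal roots, against 373, 233 and 157 CPM in control roots (log2 fold change −3.32, SE 0.36, adjusted p = 7.01e-04). Its lowest control value was more than its highest mycorrhizal value by a wide margin, and control replicate 1 was the highest library. The most abundant of those that fell, Peaxi162Scf00006g00443.1, had 266, 294 and 124 CPM in mycorrhizal roots, against 879.5, 777 and 913 CPM in control roots (log2 fold change −1.91, SE 0.31, adjusted p = 0.00421). Its neighbour Peaxi162Scf00006g00445.1 had 177, 172 and 81.9 CPM in mycorrhizal roots, against 431, 406 and 454 CPM in control roots (log2 fold change −1.59, SE 0.28, adjusted p = 0.00608). In this pair mycorrhizal replicate 3 was the lowest library, and the groups did not overlap. Only 27.1% and 23.2% of their reads in mycorrhizal roots matched a single gene, so how the reads divide between these near-identical copies is uncertain. The members that did not pass had log2 fold changes of 0.16 and 0.36. Summed over the family, PT4 included, the level was 2694, 2694 and 2223 CPM in mycorrhizal and 4308, 3803 and 3791 CPM in control roots.

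SPX proteins, which bind inositol pyrophosphates and restrain the phosphate starvation response, fell and rose by copy. Of 18 tested genes with an SPX domain, 4 were higher and 9 lower in mycorrhizal roots (median log2 fold change −0.44). SPX domain gene 1 (Peaxi162Scf01269g00014.1) had 172, 135 and 121 CPM in mycorrhizal roots, against 945, 769.6 and 613 CPM in control roots (log2 fold change −2.44, SE 0.21, adjusted p = 2.02e-04). SPX domain gene 2 (Peaxi162Scf00073g01422.1) had 244, 226 and 229 CPM in mycorrhizal roots, against 578, 535 and 453 CPM in control roots (log2 fold change −1.16, SE 0.12, adjusted p = 5.22e-04). SPX domain gene 4 (Peaxi162Scf00166g01051.1), far less abundant, had 1.46, 1.75 and 1.68 CPM in mycorrhizal roots, against 9.05, 10.6 and 9.66 CPM in control roots (log2 fold change −2.57, SE 0.17, adjusted p = 5.68e-05). All control libraries lay above all mycorrhizal libraries in these genes. Copies with the same descriptions went the other way. A second SPX domain gene 1 (Peaxi162Scf00944g00034.1) had 98.7, 79.4 and 117 CPM in mycorrhizal roots, against 5.09, 8.53 and 7.54 CPM in control roots (log2 fold change 3.80, SE 0.22, adjusted p = 2.83e-05). A further one (Peaxi162Scf00062g00136.1) had 37.6, 31.1 and 36.5 CPM in mycorrhizal roots, against 1.05, 1.84 and 1.81 CPM in control roots (log2 fold change 4.48, SE 0.20, adjusted p = 6.99e-06), and an SPX domain gene 2 copy (Peaxi162Scf00599g00052.1) had 22.01, 17.4 and 33.4 CPM against 1.21, 2.76 and 1.41 CPM (3.76, SE 0.37, adjusted p = 4.34e-04). In control roots these rising copies lay far below SPX domain genes 1 and 2 that fell.

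Purple acid phosphatases, secreted or vacuolar enzymes that free phosphate from organic compounds, showed the same division. Of 26 tested genes, 5 were higher and 11 lower in mycorrhizal roots (median log2 fold change −0.28, with 3 higher without M2). Purple acid phosphatase 17 (Peaxi162Scf00171g00924.1), a starvation-induced enzyme in Arabidopsis, had 86.5, 86.6 and 43.6 CPM in mycorrhizal roots, against 471, 386 and 337 CPM in control roots (log2 fold change −2.46, SE 0.28, adjusted p = 9.09e-04). Purple acid phosphatase 6 (Peaxi162Scf00007g01627.1) had 1.74, 3.00 and 3.12 CPM in mycorrhizal roots, against 18.0, 12.3 and 13.97 CPM in control roots (log2 fold change −2.48, SE 0.25, adjusted p = 5.51e-04). Purple acid phosphatase 26 (Peaxi162Scf00088g01026.1) fell less, with 52.1, 49.7 and 46.4 CPM against 94.4, 85.7 and 81.7 CPM (−0.82, SE 0.091, adjusted p = 8.20e-04). Each control library exceeded each mycorrhizal one. Higher in mycorrhizal roots were phosphatase 24 (Peaxi162Scf00309g00120.1), with 72.2, 59.6 and 71.2 CPM in mycorrhizal roots, against 14.9, 18.0 and 15.9 CPM in control roots (log2 fold change 2.06, SE 0.12, adjusted p = 2.36e-05), and phosphatase 27 (Peaxi162Scf00074g00154.1), with 39.4, 44.6 and 51.9 CPM against 12.7, 15.0 and 15.6 CPM (1.65, SE 0.14, adjusted p = 1.83e-04). Phosphatase 29 (Peaxi162Scf00086g01413.1) also rose (1.22, SE 0.11, adjusted p = 2.91e-04).

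Among enzymes that replace phospholipids during phosphate shortage, more genes fell than rose. Of 16 tested genes of this group, 2 were higher and 9 lower in mycorrhizal roots (median log2 fold change −0.59, with 1 higher without M1 to M3 or C3), where 11.7% of all genes were lower. The phospholipase NPC4 gene (Peaxi162Scf00245g00317.1), which cleaves membrane phospholipids, had 26.5, 21.7 and 19.8 CPM in mycorrhizal roots, against 197, 125 and 123 CPM in control roots (log2 fold change −2.71, SE 0.22, adjusted p = 1.68e-04). Monogalactosyldiacylglycerol synthase 2 (Peaxi162Scf00088g00096.1), which makes galactolipids in their place, had 90.5, 89.2 and 69.9 CPM in mycorrhizal roots, against 373, 336 and 250.2 CPM in control roots (log2 fold change −1.94, SE 0.18, adjusted p = 3.15e-04). Digalactosyldiacylglycerol synthase 2 (Peaxi162Scf00008g01718.1) had 112, 109 and 101 CPM in mycorrhizal roots, against 196, 197 and 202 CPM in control roots (log2 fold change −0.88, SE 0.083, adjusted p = 3.50e-04). In each of them the control values lay clear of the mycorrhizal ones. A second monogalactosyldiacylglycerol synthase 2 (Peaxi162Scf00045g01930.1) was higher in mycorrhizal roots, at 19.5, 18.8 and 17.7 CPM against 10.2, 11.3 and 11.9 CPM (0.75, SE 0.11, adjusted p = 0.00304). A glycerophosphodiester phosphodiesterase gene (Peaxi162Scf00962g00002.1) was also higher (1.17) but did not pass without control replicate 3 or any 1 of the mycorrhizal libraries.

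Several of the most abundant transcripts of control roots were among the largest losses, ranked by the difference of mean CPM among genes with an informative description. A pyridoxal phosphate phosphatase-related gene (Peaxi162Scf00207g01041.1), of a family with phosphate-starvation-induced phosphatases, had 253, 323 and 128 CPM in mycorrhizal roots, against 3294, 2824 and 2122 CPM in control roots (log2 fold change −3.55, SE 0.37, adjusted p = 5.80e-04). A gene described as a GDP-mannose-dependent alpha-mannosyltransferase (Peaxi162Scf00141g00615.1) had 377, 318 and 251 CPM in mycorrhizal roots, against 2199, 2139 and 1592 CPM in control roots (log2 fold change −2.65, SE 0.21, adjusted p = 1.36e-04). The gene of a PLC-like phosphodiesterase (Peaxi162Scf00420g00727.1) had 1356, 1208 and 834 CPM in mycorrhizal roots, against 3677, 3061 and 2843 CPM in control roots (log2 fold change −1.50, SE 0.21, adjusted p = 0.00254). None of these 3 genes had a mycorrhizal library in the control range. A sugar phosphate exchanger 2 (Peaxi162Scf00241g00221.1) had 1535, 1383 and 1357 CPM in mycorrhizal roots, against 3284, 3094 and 2772 CPM in control roots (log2 fold change −1.10, SE 0.14, adjusted p = 0.00134). The tonoplast water channel TIP1 (Peaxi162Scf00110g00122.1) had 529.5, 547 and 274 CPM in mycorrhizal roots, against 2238, 2127 and 2595 CPM in control roots (log2 fold change −2.37, SE 0.27, adjusted p = 9.94e-04). Phosphoenolpyruvate carboxylase, which feeds malate synthesis, was lower in 3 genes: Peaxi162Scf00027g00016.1 had 1516, 1356 and 1149 CPM against 2772, 2263 and 2122 CPM (−0.83, SE 0.17, adjusted p = 0.0109). Peaxi162Scf00469g00026.1 had 423, 413 and 511 CPM against 1251, 1585 and 1302 CPM (−1.62, SE 0.15, adjusted p = 3.20e-04). Peaxi162Scf00069g02244.1 had 154, 122 and 123 CPM against 476, 411 and 340.0 CPM (−1.62, SE 0.16, adjusted p = 4.53e-04). Again the control libraries were all above the mycorrhizal ones.

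Other large losses were in 3 genes of 2-oxoglutarate and Fe(II)-dependent oxygenases, whose substrates the annotation does not give. Peaxi162Scf00419g00078.1 had 579, 684 and 586 CPM in mycorrhizal roots, against 1358, 1830.1 and 1609 CPM in control roots (log2 fold change −1.38, SE 0.15, adjusted p = 7.88e-04). Peaxi162Scf00034g01012.1 had 957, 1191 and 1114 CPM against 2237, 3295 and 2648 CPM (−1.33, SE 0.18, adjusted p = 0.00212). Peaxi162Scf00207g00835.1 had 1336, 1414 and 1636 CPM against 2115, 3327 and 2597 CPM (−0.87, SE 0.19, adjusted p = 0.0164), and did not pass without mycorrhizal replicate 1 or 2. The groups stayed apart in these genes, with control replicate 2 highest in each. Among genes with an informative description, MLP-like protein 28 (Peaxi162Scf00723g00026.1) was the most abundant transcript to fall. It had 2390, 1877 and 1863 CPM in mycorrhizal roots, against 4012, 3554 and 4709 CPM in control roots (log2 fold change −1.002, SE 0.18, adjusted p = 0.00650). A basic glucan endo-beta-glucosidase (Peaxi162Scf00228g00020.1) and a heat shock protein 70 (Peaxi162Scf00407g00416.1) complete the 12 losses, at −0.91 and −0.64; the first lost its call in 5 and the second in 6 of 14 alternatives, most of them with a library left out.

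**Figure D3:**
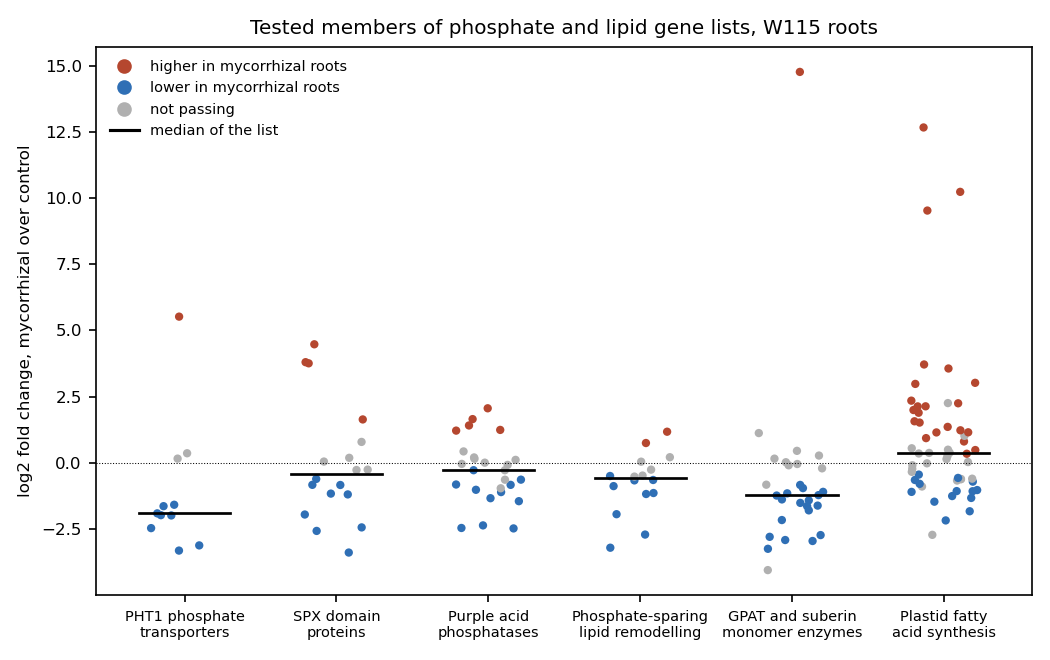
log2 fold change of mycorrhizal over control roots (y axis) for the tested members of 4 phosphate lists and 2 lipid lists; each point is a gene, coloured by the edgeR call, and bars are list medians. In the PHT1 list 8 of 11 members lie below −1.5 and PT4 alone is called higher at 5.52; the suberin list lies mostly below 0, apart from RAM2 at the top, whose fitted value rests on 0 control reads.

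Genes for the monomers of suberin, the aliphatic polymer of endodermis and exodermis walls, were lower more often than higher, while RAM2 from the same acyltransferase family rose. Of 29 tested genes of these families, 1 was higher and 18 lower in mycorrhizal roots (median log2 fold change −1.22, with 2 higher without C3 or without the filter and 11 lower without M2); 16 of the falls were at least 2-fold, and RAM2 was the higher one. Glycerol-3-phosphate acyltransferase 5 (Peaxi162Scf00440g00218.1), which makes suberin monomers in Arabidopsis roots, had 105, 118 and 119.9 CPM in mycorrhizal roots, against 316, 245 and 247 CPM in control roots (log2 fold change −1.24, SE 0.13, adjusted p = 5.90e-04). The chain-elongating 3-ketoacyl-CoA synthase 2 (Peaxi162Scf00788g00213.1) had 46.7, 38.1 and 36.5 CPM in mycorrhizal roots, against 168, 87.3 and 117 CPM in control roots (log2 fold change −1.62, SE 0.24, adjusted p = 0.00284). The 3-ketoacyl-CoA synthase 6 gene (Peaxi162Scf00814g00227.1) had 37.3, 40.6 and 46.9 CPM in mycorrhizal roots, against 101, 75.6 and 102 CPM in control roots (log2 fold change −1.15, SE 0.14, adjusted p = 0.00143). Each control library exceeded each mycorrhizal one, and control replicate 1 was highest for the first pair. The falls in this list ranged from −0.84 to −3.25. A further 3-ketoacyl-CoA synthase 6 gene had the most negative value of the list, −4.05, and did not pass. The summed level of the list was 1041, 952.5 and 1015 CPM in mycorrhizal roots, RAM2 included, and 1881, 1237 and 1541 CPM in control roots.

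Lipid transfer proteins and GDSL lipases, secreted proteins some of which handle cutin and suberin, had members with large moves in each direction. Of 44 tested lipid transfer proteins, 4 were higher and 10 lower in mycorrhizal roots (median log2 fold change −0.44, with 2 to 5 lower without M1 to M3 and the order reversed in 1 of 14 alternatives). Of the GDSL genes 7 of 68 were higher and 16 lower (median log2 fold change −0.17, with 3 to 8 lower without M1 to M3 and the order reversed in 1 of 14 alternatives). A non-specific lipid transfer protein (Peaxi162Scf00251g00108.1) had 74.4, 66.7 and 45.7 CPM in mycorrhizal roots, against 237, 127 and 152 CPM in control roots (log2 fold change −1.47, SE 0.27, adjusted p = 0.00775). A GDSL gene (Peaxi162Scf00993g00016.1) had 7.03, 4.92 and 15.3 CPM against 204, 49.3 and 57.2 CPM (−3.50, SE 0.68, adjusted p = 0.00970). In the second of these, control replicate 1 was far above the other controls, and all controls were above the mycorrhizal libraries. A GDSL gene that rose (Peaxi162Scf00362g00339.1) had 636, 633 and 639 CPM in mycorrhizal roots and 6 reads in the control libraries together. GDSL esterase/lipase 1 (Peaxi162Scf00818g00216.1) had 521, 536 and 626 CPM in mycorrhizal roots, against 76.3, 70.1 and 71.1 CPM in control roots (log2 fold change 2.95, SE 0.12, adjusted p = 3.04e-06).

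The plastid route that makes fatty acids, and the pyruvate dehydrogenase that supplies its acetyl-CoA, rose strongly in some copies and fell in others. Of 57 tested genes of fatty acid synthesis, 23 were higher and 14 lower in mycorrhizal roots (median log2 fold change 0.35). An acyl carrier protein 1 gene (Peaxi162Scf00033g01724.1), the carrier of the growing chain, had 111, 93.2 and 117 CPM in mycorrhizal roots, against 0.162, 0.167 and 0.0785 CPM in control roots (log2 fold change 9.53, SE 0.21, adjusted p = 2.75e-07). A second one (Peaxi162Scf00431g00312.1) had 244, 214 and 271 CPM in mycorrhizal roots and 1 read in all control libraries, a ratio of 9027-fold (95% counting interval 1619.7 to 356570). The 3-oxoacyl acyl carrier protein reductase 4 gene (Peaxi162Scf00128g00834.1) had 355, 360.4 and 400.0 CPM in mycorrhizal roots, against 30.5, 28.4 and 26.0 CPM in control roots (log2 fold change 3.71, SE 0.11, adjusted p = 7.73e-07). The replicates of each group lay close together in these genes. The pyruvate dehydrogenase E1 beta subunit (Peaxi162Scf00394g00118.1) had 327, 320.4 and 351 CPM in mycorrhizal roots, against 40.2, 47.7 and 46.6 CPM in control roots (log2 fold change 2.89, SE 0.11, adjusted p = 2.29e-06). The acetyltransferase component (Peaxi162Scf00004g01917.1) had 279, 294 and 265 CPM against 32.9, 37.9 and 32.03 CPM (3.03, SE 0.11, adjusted p = 1.66e-06). A pyruvate kinase gene (Peaxi162Scf00312g00519.1), the step before, had 188, 215 and 214 CPM against 42.2, 40.4 and 38.3 CPM (2.35, SE 0.096, adjusted p = 3.98e-06). All mycorrhizal libraries lay above all control libraries. Among the 14 members that fell, an acetyl-CoA carboxylase subunit (Peaxi162Scf00056g00313.1) had 84.5, 82.5 and 82.5 CPM against 195, 156 and 245 CPM (−1.26, SE 0.16, adjusted p = 0.00157), and 3-oxoacyl acyl carrier protein synthase 3 (Peaxi162Scf00133g00053.1) fell too (−1.07, SE 0.15, adjusted p = 0.00231). In the wider list of glycolysis and carboxylate metabolism, 28 of 106 were higher and 17 lower (median log2 fold change 0.006).

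Nitrogen transport shifted by copy, with surface uptake genes lower and otherwise nearly unread copies high. Of the nitrate uptake and assimilation genes 5 of 29 were higher and 6 lower (median log2 fold change −0.088, with 3 lower without M1, M2 or C2 and the order reversed in 6 of 14 alternatives). Nitrate transporter 2.6 (Peaxi162Scf00115g00006.1), of the high-affinity family, had 5.66, 6.08 and 2.74 CPM in mycorrhizal roots, against 30.0, 121 and 46.8 CPM in control roots (log2 fold change −3.78, SE 0.59, adjusted p = 0.00381). Its neighbours Peaxi162Scf00115g00028.1 and Peaxi162Scf00115g00038.1 also fell (−2.03 and −1.41), and 33.3% of the reads of the first in mycorrhizal roots were unique to it. In all of them control replicate 2 was the highest library, and the groups did not overlap. Another gene with this description (Peaxi162Scf00311g00312.1) had 235, 284 and 228 CPM in mycorrhizal roots and 4 reads in the control libraries together. A glutamine synthetase 1.3 gene (Peaxi162Scf00314g00419.1), which assimilates ammonium, had 74.7, 78.2 and 109.6 CPM in mycorrhizal roots, against 0.162, 0 and 0.236 CPM in control roots (log2 fold change 9.24, SE 0.38, adjusted p = 4.07e-06). Of 11 ammonium transporter genes, 7 were higher and 2 lower (median 6.24). AMT2-type genes rose beside AMT2 itself: Peaxi162Scf00282g00327.1 had 75.4, 102 and 86.6 CPM in mycorrhizal roots, against 1.13, 0.669 and 1.10 CPM in control roots (log2 fold change 6.49, SE 0.21, adjusted p = 9.95e-07). The AMT1-type genes fell, Peaxi162Scf00077g00125.1 with 233, 259.6 and 278 CPM against 388, 507 and 392 CPM (−0.74, SE 0.14, adjusted p = 0.00819) and Peaxi162Scf00125g00122.1 with 82.0, 91.1 and 63.5 CPM against 132, 119.7 and 139 CPM (−0.72, SE 0.14, adjusted p = 0.00997); the first did not pass in 1 model of all 12 libraries.

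In the NRT1/PTR family, which carries nitrate, peptides and hormones, 17 of 69 were higher and 9 lower (median log2 fold change 0.045, with 9 to 11 higher without M1, M2 or C2 and 5 lower without M2, M3 or C2 or in the joint model). NRT1/PTR family 1.1 (Peaxi162Scf00665g00014.1) had 295, 321 and 349 CPM in mycorrhizal roots, against 0.323, 0.502 and 0 CPM in control roots (log2 fold change 10.16, SE 0.39, adjusted p = 2.86e-06). NRT1/PTR family 8.2 (Peaxi162Scf00064g00530.1) had 75.9, 95.5 and 80.7 CPM in mycorrhizal roots, against 0.646, 0.334 and 0.707 CPM in control roots (log2 fold change 7.19, SE 0.21, adjusted p = 6.65e-07). Mycorrhizal values were far above the control values in both. Lower were NRT1/PTR family 7.3 (Peaxi162Scf00901g00317.1), with 12.3, 24.7 and 14.9 CPM in mycorrhizal roots, against 68.3, 92.7 and 56.5 CPM in control roots (log2 fold change −2.07, SE 0.29, adjusted p = 0.00228), and 5.7 (Peaxi162Scf00975g00012.1), with 30.5, 32.1 and 25.8 CPM against 55.8, 65.7 and 54.9 CPM (−0.997, SE 0.12, adjusted p = 0.00104), neither with overlapping groups.

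Potassium and metal genes held sharp single responses within lists that moved to either side. Of 33 tested potassium transporters and channels, 7 were higher and 10 lower in mycorrhizal roots (median log2 fold change −0.20, with 6 lower without M2). Potassium transporter 2 (Peaxi162Scf00171g01035.1) had 125, 129 and 114 CPM in mycorrhizal roots, against 3.07, 3.18 and 2.98 CPM in control roots (log2 fold change 5.31, SE 0.10, adjusted p = 2.49e-07), with replicates nearly equal in each group. The potassium transporter gene Peaxi162Scf01215g00017.1 had 17.0, 15.8 and 18.6 CPM in mycorrhizal roots, against 60.4, 63.5 and 49.1 CPM in control roots (log2 fold change −1.75, SE 0.13, adjusted p = 8.40e-05). Among iron, zinc and copper genes 11 of 59 were higher and 12 lower (median log2 fold change −0.24, with 7 lower without M3 and the order reversed in 5 of 14 alternatives). Ferritin-2 (Peaxi162Scf00284g00521.1), the plastid iron storage protein, had 67.6, 63.4 and 65.2 CPM in mycorrhizal roots, against 173, 159 and 180.4 CPM in control roots (log2 fold change −1.38, SE 0.087, adjusted p = 4.02e-05). The vacuolar iron transporter homolog 4 (Peaxi162Scf00823g00003.1) had 12.97, 11.3 and 9.91 CPM in mycorrhizal roots, against 38.7, 42.0 and 37.1 CPM in control roots (log2 fold change −1.79, SE 0.12, adjusted p = 7.25e-05). A zinc transporter 10 precursor (Peaxi162Scf00362g00957.1) was higher, at 83.7, 114.7 and 106 CPM against 1.13, 1.09 and 0.707 CPM (6.69, SE 0.21, adjusted p = 9.33e-07). The groups did not overlap in any of the genes named here.

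Sulfate genes, aquaporins and sugar genes each had calls to both sides near the shares of all genes. For sulfate, 4 of 29 were higher and 4 lower (median log2 fold change −0.034, with 7 higher without M3). Sulfate transporter 1 (Peaxi162Scf00003g03631.1), of the uptake type, had 104, 115.3 and 115.2 CPM in mycorrhizal roots, against 56.0, 36.1 and 46.7 CPM in control roots (log2 fold change 1.27, SE 0.16, adjusted p = 0.00134), while sulfate transporter 3 genes fell, among them Peaxi162Scf00520g00036.1 with 0.365, 1.08 and 1.75 CPM against 9.29, 19.5 and 6.44 CPM (−3.41, SE 0.58, adjusted p = 0.00542). For aquaporins, 5 of 40 were higher and 6 lower (median log2 fold change −0.11, with 8 higher without C3 or with DESeq2, 3 lower without M1, M2 or C3 and the order reversed in 7 of 14 alternatives). The plasma membrane channel PIP1 (Peaxi162Scf00119g01214.1) had 787, 761 and 579 CPM in mycorrhizal roots, against 1163, 1577 and 1613 CPM in control roots (log2 fold change −1.03, SE 0.18, adjusted p = 0.00660). A NIP1-1 gene (Peaxi162Scf00160g01331.1) had 87.5, 112 and 97.9 CPM in mycorrhizal roots and 1 read in the control libraries, a ratio of 3682-fold (95% counting interval 660.4 to 145460); 57.5% of its reads in mycorrhizal roots were unique. Control and mycorrhizal libraries were separate in these genes. For sugar transport and sucrose cleavage, 9 of 52 were higher and 8 lower (median log2 fold change −0.046, with 4 to 5 higher without M1, M2, C1 or C2, 3 to 5 lower without M2, M3 or C2 and the order reversed in 4 of 14 alternatives). Sugar transport protein 8 (Peaxi162Scf00216g00126.1), a monosaccharide importer, had 91.4, 124 and 101 CPM in mycorrhizal roots, against 5.41, 1.504 and 4.95 CPM in control roots (log2 fold change 4.73, SE 0.37, adjusted p = 1.45e-04). A neutral invertase (Peaxi162Scf00684g00002.1), which splits sucrose, had 113, 110.0 and 101 CPM in mycorrhizal roots, against 266, 236 and 227 CPM in control roots (log2 fold change −1.17, SE 0.10, adjusted p = 2.21e-04). All mycorrhizal libraries were above the controls in the first and below them in the second.

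Secreted and vacuolar proteases were among the largest gains of transcript. A subtilase (Peaxi162Scf00620g00418.1) had 1261, 1232 and 1361 CPM in mycorrhizal roots, against 0.404, 0.334 and 0.314 CPM in control roots (log2 fold change 11.80, SE 0.18, adjusted p = 1.32e-07). Serine carboxypeptidase-like 40 (Peaxi162Scf00016g01639.1) had 1748, 1769 and 1683 CPM in mycorrhizal roots, against 56.1, 80.7 and 59.0 CPM in control roots (log2 fold change 4.73, SE 0.18, adjusted p = 2.98e-06). A vacuolar-processing enzyme (Peaxi162Scf00436g00514.1), a cysteine protease of the vacuole, had 973, 939 and 1037 CPM in mycorrhizal roots, against 10.0, 6.60 and 11.8 CPM in control roots (log2 fold change 6.70, SE 0.24, adjusted p = 1.79e-06), and Peaxi162Scf00436g00613.1 and Peaxi162Scf00436g00612.1 on the same scaffold rose by 10.68 and 8.13 on the log2 scale. Every mycorrhizal library was above every control library in these genes. As families the proteases were divided. Of 64 tested subtilases, 8 were higher and 12 lower in mycorrhizal roots (median log2 fold change −0.070). For serine carboxypeptidases 13 of 47 were higher and 6 lower (median log2 fold change 0.020), and for cysteine and aspartic peptidases 11 of 90 were higher and 14 lower (median log2 fold change −0.15, with 8 to 9 lower without M1 or M2 and the order reversed in 2 of 14 alternatives). A subtilisin-like gene that fell (Peaxi162Scf00981g00215.1) had 35.8, 25.2 and 27.3 CPM in mycorrhizal roots, against 84.3, 64.5 and 79.9 CPM in control roots (log2 fold change −1.38, SE 0.16, adjusted p = 0.00104). Germin-like proteins, oxidases of the wall, were often high: 15 of 50 were higher and 5 lower (median log2 fold change 0.088, with 1 to 3 lower without M1 to M3 or C3 or in the joint model). Germin-like protein 9 (Peaxi162Scf00267g00072.1) had 108, 125 and 116 CPM in mycorrhizal roots, against 0.565, 0.334 and 0.393 CPM in control roots (log2 fold change 8.04, SE 0.16, adjusted p = 2.49e-07), whereas germin-like protein 5 (Peaxi162Scf00194g00426.1) had 70.4, 57.8 and 52.7 CPM against 325, 114.5 and 209 CPM (−1.84, SE 0.35, adjusted p = 0.00871).

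Further genes with the largest gains of mean CPM or the smallest p among those that rose belong to other families. A Bet v 1-type gene (Peaxi162Scf00553g00623.1) had the largest gain among genes with an informative description. It had 1741, 1858 and 2027 CPM in mycorrhizal roots, against 0.969, 0.919 and 0.785 CPM in control roots (log2 fold change 11.02, SE 0.19, adjusted p = 1.52e-07). Of its reads in mycorrhizal roots, 70.8% were unique to it. A blue copper protein (Peaxi162Scf00620g00228.1) had 787, 871 and 778 CPM in mycorrhizal roots, against 0.889, 0.669 and 0.707 CPM in control roots (log2 fold change 10.05, SE 0.17, adjusted p = 1.52e-07). SKU5 similar 3 (Peaxi162Scf00176g01641.1), a multicopper oxidase-like wall protein, had 522, 566 and 564 CPM in mycorrhizal roots and 4 reads in the control libraries. A glutathione S-transferase (Peaxi162Scf01096g00318.1) had 929, 917 and 999.7 CPM in mycorrhizal roots and 6 control reads, and a long-chain fatty acid ligase (Peaxi162Scf00559g00421.1) had 701, 711 and 700.1 CPM against 1.13, 0.502 and 0.157 CPM (10.19, SE 0.38, adjusted p = 2.48e-06). A GH3 gene (Peaxi162Scf00945g00013.1), of the enzymes that conjugate auxin or jasmonate, had 800.1, 678 and 893 CPM in mycorrhizal roots, against 39.4, 29.2 and 26.4 CPM in control roots (log2 fold change 4.64, SE 0.20, adjusted p = 5.92e-06). In every gene named so far in this group the lowest mycorrhizal value was far above the highest control value. Elongation factor 1-alpha (Peaxi162Scf00351g00321.1), abundant in all roots, is a gain of another kind and had 2009.5, 2311 and 2167 CPM in mycorrhizal roots, against 1388, 1425 and 1219.7 CPM in control roots (log2 fold change 0.69, SE 0.13, adjusted p = 0.00870); 61.8% of its reads in mycorrhizal roots were unique to it.

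Defence-related families did not move as one. Of 25 tested chitinases, 13 were higher and 1 lower in mycorrhizal roots (median log2 fold change 1.62, with 2 to 4 lower without M1, C2 or C3, with DESeq2 or with unique reads), beside 13.5% higher and 11.7% lower among all genes. Chitinase 2 (Peaxi162Scf00616g00611.1) had 88.0, 97.0 and 93.0 CPM in mycorrhizal roots and 2 reads in the control libraries, a ratio of 1720.1-fold (95% counting interval 476 to 14209). A chitinase-3-like gene (Peaxi162Scf00347g00420.1) was the member that fell, with 38.1, 41.6 and 38.2 CPM against 63.1, 62.9 and 72.0 CPM (−0.75, SE 0.090, adjusted p = 0.00117), and did not pass in 1 model of all 12 libraries. Of the PR10 and Bet v 1 genes 7 of 16 were higher and 1 lower (median log2 fold change 1.28). The other pathogenesis-related proteins (thaumatins, defensins, beta-glucanases and others) fell more often than they rose: 1 of 65 was higher and 9 lower (median log2 fold change −0.24, with 2 to 3 higher without M1, C2 or C3 or with DESeq2 and 5 lower without M3). A defensin-like gene (Peaxi162Scf00088g01111.1) had 21.0, 20.2 and 11.8 CPM in mycorrhizal roots, against 48.5, 53.2 and 51.2 CPM in control roots (log2 fold change −1.53, SE 0.21, adjusted p = 0.00195). The beta-glucanase gene Peaxi162Scf00451g00323.1 had 27.9, 33.3 and 33.3 CPM in mycorrhizal roots, against 91.4, 77.1 and 64.0 CPM in control roots (log2 fold change −1.297, SE 0.15, adjusted p = 8.85e-04). Each control library was above each mycorrhizal one. Of 158 intracellular NB-ARC immune receptors, 7 were higher and 11 lower, 4.43% and 6.96% (median log2 fold change −0.078, with 4 higher without M2, 5 to 7 lower without M1, M2, C1 or C3 or in the joint model and the order reversed in 3 of 14 alternatives), and the TIR-type gene Peaxi162Scf00036g00711.1 had 44.8, 55.3 and 38.4 CPM against 96.9, 100.2 and 96.3 CPM (−1.08, SE 0.13, adjusted p = 0.00136).

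Among receptors at the cell surface, LysM proteins bind chitin oligomers of fungi. Of 24 tested LysM genes, 6 were higher and 5 lower in mycorrhizal roots (median log2 fold change −0.11, with 2 to 3 lower without any 1 library or in the joint model). An unnamed LysM gene (Peaxi162Scf00089g01522.1) had 396, 329 and 420.1 CPM in mycorrhizal roots, against 0.242, 0.418 and 0.471 CPM in control roots (log2 fold change 9.94, SE 0.22, adjusted p = 2.75e-07). A LysM kinase gene (Peaxi162Scf00535g00125.1) fell, with 42.8, 46.5 and 36.7 CPM against 89.8, 76.0 and 76.0 CPM (−0.94, SE 0.12, adjusted p = 0.00143). Of the leucine-rich repeat kinases 23 of 198 were higher and 30 lower (median log2 fold change −0.11, with 14 to 19 lower without M1 to M3, C2 or C3 and the order reversed in 7 of 14 alternatives). The kinase gene Peaxi162Scf00017g02331.1 had 45.2, 52.5 and 50.6 CPM in mycorrhizal roots, against 1.45, 1.25 and 1.65 CPM in control roots (log2 fold change 5.08, SE 0.14, adjusted p = 5.70e-07). Peaxi162Scf00654g00310.1 had 32.9, 30.0 and 29.8 CPM against 81.6, 87.8 and 63.0 CPM (−1.33, SE 0.13, adjusted p = 5.13e-04). No replicates overlapped between the groups in these genes. Of the calcium-dependent and CBL-interacting kinases and calmodulins, 5 of 72 were higher and 10 lower (median log2 fold change −0.15, with 2 to 3 higher without M1, M2, C2 or C3). Calcium-dependent protein kinase 33 (Peaxi162Scf00135g00056.1) fell, with 41.0, 46.7 and 37.7 CPM in mycorrhizal roots, against 142, 115.3 and 91.5 CPM in control roots (log2 fold change −1.48, SE 0.17, adjusted p = 9.94e-04).

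Transcription factors divided by family. GRAS proteins, the family of RAM1 and of the gibberellin-responsive DELLAs, rose more often than all genes did (41.0%, against 13.5%): 25 of 61 were higher and 12 lower (median log2 fold change 0.12, with 5 to 7 lower without M2 or C1). Next to RAM1, the GRAS gene Peaxi162Scf00691g00048.1 had 37.5, 35.8 and 35.4 CPM in mycorrhizal roots, against 0.0808, 0.0836 and 0.0785 CPM in control roots (log2 fold change 8.64, SE 0.17, adjusted p = 2.49e-07). The GRAS gene Peaxi162Scf00058g00263.1 had 22.3, 22.9 and 25.3 CPM in mycorrhizal roots, against 0.969, 0.919 and 0.864 CPM in control roots (log2 fold change 4.66, SE 0.15, adjusted p = 9.33e-07). Their control values were below 1 CPM in all 3 libraries. Among those that fell, Peaxi162Scf00650g00223.1 had 85.2, 84.6 and 76.2 CPM in mycorrhizal roots, against 223, 231 and 183 CPM in control roots (log2 fold change −1.37, SE 0.12, adjusted p = 2.04e-04). Of the AP2/ERF factors 22 of 137 were higher and 22 lower (median log2 fold change −0.17). The AP2-like gene Peaxi162Scf00177g00109.1 had 67.3, 66.8 and 79.6 CPM in mycorrhizal roots and no control read, at least 885-fold higher, set against a floor of 3 reads over the control group. Ethylene-responsive factor 5 (Peaxi162Scf00167g00083.1) had 1.19, 1.33 and 1.60 CPM in mycorrhizal roots, against 13.3, 8.86 and 15.7 CPM in control roots (log2 fold change −3.19, SE 0.27, adjusted p = 2.19e-04). An AP2-like gene (Peaxi162Scf02748g00006.1) fell too, with 14.1, 11.5 and 9.30 CPM against 52.9, 51.8 and 39.7 CPM (−2.05, SE 0.18, adjusted p = 2.57e-04). The groups were separate in all of them.

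MYB, NAC, bHLH and WRKY factors fell more often than they rose, except WRKY factors without control replicate 1 (8 higher, 7 lower). Of 78 MYB genes 3 were higher and 20 lower (median −0.49), of 70 NAC genes 6 and 20 (median −0.29), of 119 bHLH genes 6 and 34 (median −0.37) and of 68 WRKY genes 3 and 12 (median −0.27). The counts depended on single libraries: MYB had 1 higher without M2 and 10 to 13 lower without M1 to M3. NAC had 12 to 13 lower without M2 or M3, bHLH 3 higher without M1, M2 or C2 and 17 to 22 lower without M1, M2, C2 or C3 and WRKY 8 higher without C1, 5 to 7 lower without M2, C1 or C3 and the order reversed in 1 of 14 alternatives. Myb domain protein 59 (Peaxi162Scf00411g00008.1) had 59.0, 62.9 and 43.4 CPM in mycorrhizal roots, against 276, 191 and 159 CPM in control roots (log2 fold change −1.92, SE 0.23, adjusted p = 0.00120). Myb domain protein 48 (Peaxi162Scf00986g00227.1) had 90.4, 107 and 98.0 CPM in mycorrhizal roots, against 209, 214 and 188 CPM in control roots (log2 fold change −1.05, SE 0.10, adjusted p = 3.92e-04). NAC domain containing protein 73 (Peaxi162Scf00248g01414.1), of the NAC group that acts on secondary walls in Arabidopsis, had 11.4, 7.83 and 9.30 CPM in mycorrhizal roots, against 24.7, 28.2 and 33.3 CPM in control roots (log2 fold change −1.60, SE 0.17, adjusted p = 7.64e-04). Control roots were higher in every replicate of these genes. A bHLH gene (Peaxi162Scf00065g01127.1) had 19.5, 16.9 and 17.0 CPM in mycorrhizal roots, against 41.1, 35.6 and 41.1 CPM in control roots (log2 fold change −1.14, SE 0.11, adjusted p = 3.37e-04). WRKY 11 (Peaxi162Scf00459g00841.1) had 29.0, 26.2 and 25.2 CPM in mycorrhizal roots, against 62.4, 48.8 and 43.8 CPM in control roots (log2 fold change −0.95, SE 0.14, adjusted p = 0.00325). A NAC gene that rose (Peaxi162Scf00182g00711.1) had 17.6, 22.5 and 28.7 CPM against 0.162, 0.167 and 0.236 CPM (6.85, SE 0.31, adjusted p = 7.00e-06). Of the 6 higher genes that carry the bHLH match, 1 is described as a 60S ribosomal protein L7-4.

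In the xyloglucan and arabinogalactan families of cell wall genes, more members were lower than higher. Of the xyloglucan endotransglucosylases, which cut and rejoin wall polymers during growth, 2 of 36 were higher and 12 lower (median log2 fold change −0.72, with 1 higher without M2 or in the joint model, 4 higher without C3, 4 to 6 lower without M1 to M3 or C3 or in the joint model and 19 lower without C1), and 11 of the falls were at least 2-fold. Xyloglucan endotransglucosylase/hydrolase 25 (Peaxi162Scf00324g00088.1) had 5.66, 5.75 and 3.12 CPM in mycorrhizal roots, against 24.4, 19.0 and 27.01 CPM in control roots (log2 fold change −2.28, SE 0.25, adjusted p = 7.88e-04). Enzyme 9 of the family (Peaxi162Scf00171g00331.1) had 0.0913, 0.583 and 0.229 CPM in mycorrhizal roots, against 7.92, 5.85 and 3.53 CPM in control roots (log2 fold change −4.20, SE 0.54, adjusted p = 0.00162). The groups did not overlap. Of the fasciclin-like and other arabinogalactan proteins of the cell surface, 9 of 18 were lower and the other 9 did not pass (median log2 fold change −0.51, with 4 to 5 lower without M2, M3, C2 or C3). Fasciclin-like protein 2 (Peaxi162Scf00802g00014.1) had 222, 248 and 159.9 CPM in mycorrhizal roots, against 409, 329 and 409.7 CPM in control roots (log2 fold change −0.86, SE 0.18, adjusted p = 0.0124). Among the proteins of the Casparian strip, the diffusion barrier of the endodermis, Casparian strip membrane protein 1 (Peaxi162Scf00222g00617.1) had 21.9, 22.5 and 12.2 CPM in mycorrhizal roots, against 48.6, 68.1 and 64.7 CPM in control roots (log2 fold change −1.68, SE 0.24, adjusted p = 0.00275), while another gene with this description (Peaxi162Scf01089g00016.1) had 85.5, 98.9 and 86.1 CPM against 34.1, 10.9 and 10.1 CPM (2.30, SE 0.45, adjusted p = 0.00954). The UPF0497 membrane protein Peaxi162Scf00358g00614.1 of the same family had 239.9, 229 and 227 CPM in mycorrhizal roots and 2 control reads. Replicates of the groups stayed apart in each of these genes. Of 42 tested Casparian strip membrane and CASP-like genes, 7 were higher and 8 lower (median log2 fold change −0.30). This list had 2 to 5 lower without M1 to M3 or C3, and the order reversed in 6 of 14 alternatives. Of 27 tested genes of the cellulose synthase superfamily, 5 were higher and 5 lower (median −0.089), with 1 to 3 lower without M1 to M3 or C2 or in the joint model. Of the cellulose synthase genes, cellulose synthase-like D3 (Peaxi162Scf00052g00014.1), of a subfamily needed for root hair tips in Arabidopsis, had 241, 272 and 249.7 CPM in mycorrhizal roots, against 94.0, 67.6 and 86.9 CPM in control roots (log2 fold change 1.62, SE 0.14, adjusted p = 2.13e-04). For expansins and extensins 6 of 58 were higher and 5 lower (median log2 fold change −0.061, with 2 to 3 lower without M2, M3 or C3 or in the joint model, 13 lower without C1 or with DESeq2 and the order reversed in 5 of 14 alternatives).

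Hormone genes moved in different directions. For cytokinin, 2 of 38 were higher and 15 lower (median log2 fold change −0.37, with 1 higher without M3, C2 or C3 and 9 lower without M2). A LOG-type cytokinin-activating enzyme (Peaxi162Scf00438g00511.1) had 16.5, 17.3 and 19.4 CPM in mycorrhizal roots, against 63.7, 49.1 and 38.3 CPM in control roots (log2 fold change −1.50, SE 0.19, adjusted p = 0.00138). Response regulator 9 (Peaxi162Scf00970g00159.1), of the family that cytokinin itself induces in Arabidopsis, had 3.93, 3.42 and 3.89 CPM in mycorrhizal roots, against 8.81, 7.86 and 6.83 CPM in control roots (log2 fold change −1.06, SE 0.17, adjusted p = 0.00411). For abscisic acid, 11 of 27 were lower and the other 16 did not pass (median log2 fold change −0.34, with 1 higher without M3 or C2, with DESeq2 or with library totals only and 6 lower without M2). The catabolic 8'-hydroxylase 1 (Peaxi162Scf00053g00315.1) had 18.6, 14.7 and 16.8 CPM in mycorrhizal roots, against 55.5, 42.0 and 45.1 CPM in control roots (log2 fold change −1.51, SE 0.14, adjusted p = 3.44e-04). Of its receptors, a PYR1 gene (Peaxi162Scf00264g00072.1) had 22.01, 23.4 and 21.2 CPM in mycorrhizal roots, against 40.5, 42.0 and 38.7 CPM in control roots (log2 fold change −0.86, SE 0.086, adjusted p = 4.71e-04). In these hormone genes control roots were higher in every library. The epoxycarotenoid dioxygenases that make the precursor of abscisic acid fell as well, Peaxi162Scf00323g00925.1 with 111, 141 and 109 CPM against 423, 367 and 330.1 CPM (−1.64, SE 0.15, adjusted p = 2.73e-04) and Peaxi162Scf00227g00007.1 with 24.8, 26.3 and 32.1 CPM against 67.7, 68.2 and 60.2 CPM (−1.23, SE 0.12, adjusted p = 3.75e-04).

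Gibberellin genes rose more often than they fell, and auxin genes fell more often than they rose. For gibberellin, 13 of 39 were higher and 2 lower (median log2 fold change 0.44, with 1 lower without M1 to M3 or C2 or in the joint model and 4 lower with DESeq2). Gibberellin 3-oxidase 1 (Peaxi162Scf00015g00525.1), which makes the active hormone, had 25.0, 28.6 and 18.2 CPM in mycorrhizal roots, against 1.29, 1.76 and 1.10 CPM in control roots (log2 fold change 4.11, SE 0.25, adjusted p = 3.41e-05). Gibberellin 20-oxidase 2 (Peaxi162Scf00192g00611.1) had 9.04, 12.2 and 13.4 CPM in mycorrhizal roots, against 0.485, 0.836 and 0.393 CPM in control roots (log2 fold change 4.33, SE 0.30, adjusted p = 7.41e-05). Ent-kaurenoic acid hydroxylase 2 (Peaxi162Scf00268g00310.1) had 61.9, 75.9 and 56.8 CPM in mycorrhizal roots and 1 control read, a ratio of 2400-fold (95% counting interval 430.3 to 94836). All mycorrhizal libraries exceeded all controls in these genes. The summed level of the 58 gibberellin genes in the annotation was 2218, 1832 and 991 CPM in mycorrhizal and 1047, 1158 and 1227 CPM in control roots. In this sum mycorrhizal replicate 3 lay below every control. For auxin, 10 of 121 were higher and 26 lower (median log2 fold change −0.26, with 15 lower without M2). Auxin response factor 9 (Peaxi162Scf00074g00537.1) had 97.6, 97.4 and 92.4 CPM in mycorrhizal roots, against 315, 281 and 187 CPM in control roots (log2 fold change −1.44, SE 0.19, adjusted p = 0.00169). A SAUR gene (Peaxi162Scf00128g01631.1) had 168, 167 and 171 CPM in mycorrhizal roots, against 327, 352 and 305 CPM in control roots (log2 fold change −0.96, SE 0.093, adjusted p = 4.07e-04). For ethylene 3 of 38 were higher and 5 lower (median log2 fold change −0.27, with 5 higher in the joint model or with DESeq2, 2 to 3 lower without any 1 library, 8 lower with DESeq2 and the order reversed in 4 of 14 alternatives). For jasmonate and oxylipins 1 of 38 was higher and 4 lower (median log2 fold change −0.23, with 2 higher without M2, M3 or C2, with DESeq2, with library totals only or without the filter, 1 lower without M2, M3, C1 or C3 or in the joint model and the order reversed in 2 of 14 alternatives). A jasmonate ZIM-domain gene (Peaxi162Scf00011g01124.1), a repressor of jasmonate responses, was the member that rose, with 41.9, 40.5 and 49.2 CPM against 4.44, 2.84 and 2.83 CPM (3.70, SE 0.19, adjusted p = 1.46e-05).

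Specialised metabolism had rises and falls within each family. In the plastid isoprenoid and carotenoid pathway, which feeds the apocarotenoids of mycorrhizal roots, 15 of 35 were higher and 3 lower (median log2 fold change 0.33). Carotenoid cleavage dioxygenase 1 (Peaxi162Scf00953g00218.1), which cuts carotenoids into these products, had 138, 134 and 149 CPM in mycorrhizal roots, against 48.4, 57.0 and 49.1 CPM in control roots (log2 fold change 1.45, SE 0.099, adjusted p = 6.54e-05). A further copy (Peaxi162Scf00193g00098.1) had 52.8, 61.2 and 58.4 CPM in mycorrhizal roots, against 0, 0.251 and 0.0785 CPM in control roots (log2 fold change 8.93, SE 0.33, adjusted p = 2.38e-06). Of the terpene synthases and triterpene cyclases 4 of 47 were higher and 9 lower (median log2 fold change −0.21, with 2 higher without M2, 3 to 5 lower without M1 to M3 or in the joint model and the order reversed in 1 of 14 alternatives). Terpene synthase 04 (Peaxi162Scf01455g00005.1) had 4.02, 7.17 and 5.64 CPM in mycorrhizal roots, against 57.7, 45.2 and 41.8 CPM in control roots (log2 fold change −3.10, SE 0.22, adjusted p = 8.47e-05). Among the beta-amyrin synthase genes, Peaxi162Scf00443g00213.1 fell, with 214, 192 and 205 CPM against 357, 349.7 and 404 CPM (−0.86, SE 0.10, adjusted p = 0.00103). Peaxi162Scf00928g00242.1 had 73.9, 87.8 and 78.9 CPM against 0.242, 0 and 0.0785 CPM (9.41, SE 0.32, adjusted p = 1.33e-06). Each of these genes separated the groups. For phenylpropanoids and lignin 4 of 73 were higher and 14 lower (median log2 fold change −0.45, with 6 lower without M2). 4-Coumarate:CoA ligase 3 (Peaxi162Scf00745g00865.1) had 134, 125 and 102 CPM in mycorrhizal roots, against 247, 269.6 and 248 CPM in control roots (log2 fold change −1.08, SE 0.12, adjusted p = 8.24e-04), and cinnamyl alcohol dehydrogenase 9 (gene Peaxi162Scf00913g00322.1) had 126, 150.2 and 131 CPM against 0.162, 0.167 and 0.157 CPM (9.62, SE 0.17, adjusted p = 1.52e-07).

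The large enzyme families had calls to both sides. Of 300 cytochrome P450s, 44 were higher and 71 lower (median log2 fold change −0.12, with 42 lower without M2 and the order reversed in 2 of 14 alternatives). Of 167 UDP-glycosyltransferases, 42 were higher and 33 lower (median log2 fold change −0.045). The P450 gene Peaxi162Scf01276g00002.1 was among the abundant ones, with 363, 383 and 362 CPM in mycorrhizal roots, against 927, 1047 and 912 CPM in control roots (log2 fold change −1.38, SE 0.11, adjusted p = 1.33e-04). The glycosyltransferase gene Peaxi162Scf00160g00002.1 had 249, 275 and 272 CPM in mycorrhizal roots, against 0.323, 0.502 and 0.0785 CPM in control roots (log2 fold change 9.75, SE 0.28, adjusted p = 6.50e-07). Peaxi162Scf00393g00717.1 had 51.4, 45.7 and 47.4 CPM against 146, 133 and 114 CPM (−1.44, SE 0.11, adjusted p = 1.45e-04). Of 101 class III peroxidases 5 were higher and 12 lower (median log2 fold change −0.39, with 3 to 6 lower without M2, M3 or C3, 27 lower with DESeq2 and the order reversed in 1 of 14 alternatives). The peroxidase gene Peaxi162Scf00262g01516.1 had 339.8, 408 and 452 CPM in mycorrhizal roots, against 886, 938 and 991 CPM in control roots (log2 fold change −1.23, SE 0.13, adjusted p = 7.76e-04). The groups did not overlap in these genes.

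Cytosolic ribosomal proteins rose nearly as a block, by a small amount. Of 206 tested genes 170 were higher (82.5%, against 13.5% of all genes) and the other 36 did not pass, with a median log2 fold change of 0.58; 3 of them rose at least 2-fold. Over the 14 alternatives the number of higher members ranged from 130 to 177. Their summed level was 36980, 39850 and 41850 CPM in mycorrhizal and 24380, 25650 and 27740 CPM in control roots, and these sums did not overlap. Ribosomal protein L15 (Peaxi162Scf00961g00115.1), of the large subunit, had 192, 219 and 219 CPM in mycorrhizal roots, against 99.0, 109 and 108 CPM in control roots (log2 fold change 1.00, SE 0.095, adjusted p = 3.70e-04). Ribosomal protein S13 (Peaxi162Scf00013g03227.1), of the small subunit, had 147, 161 and 160.1 CPM in mycorrhizal roots, against 86.7, 79.3 and 86.8 CPM in control roots (log2 fold change 0.89, SE 0.086, adjusted p = 4.09e-04). Genes of the cell cycle and of microtubules also rose more often than they fell. For cyclins, histones and DNA replication 27 of 133 were higher and 8 lower (median log2 fold change 0.11, with 14 to 16 higher without M1 or M2 and 3 to 5 lower without M1, M2, C2 or C3). Of these rises, 9 were at least 2-fold. The summed level of this list overlapped, at 5470, 4894 and 5388 CPM in mycorrhizal and 5193, 5456 and 6249 CPM in control roots. Replication factor C subunit 5 (Peaxi162Scf00366g00532.1), which loads the replication clamp, had 60.5, 57.7 and 55.5 CPM in mycorrhizal roots, against 0.565, 0.418 and 0.157 CPM in control roots (log2 fold change 7.22, SE 0.24, adjusted p = 1.16e-06). For kinesins and tubulins 26 of 100 were higher and 7 lower (median log2 fold change 0.31, with 16 higher without M3 or C2 and 2 to 4 lower without any 1 library). Their summed level was 7283, 7960 and 7282 CPM in mycorrhizal and 5484, 6719 and 6250 CPM in control roots. Armadillo repeat-containing kinesin-like protein 1 (Peaxi162Scf00145g01216.1) had 55.0, 56.1 and 61.0 CPM in mycorrhizal roots, against 11.6, 14.5 and 12.3 CPM in control roots (log2 fold change 2.17, SE 0.11, adjusted p = 1.25e-05). For heat shock proteins and chaperonins 42 of 178 were higher and 19 lower (median log2 fold change 0.068, with 5 to 11 lower without M1, M2, C1 or C2 or in the joint model). In the genes named here mycorrhizal roots were higher in every library.

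**Figure D4:**
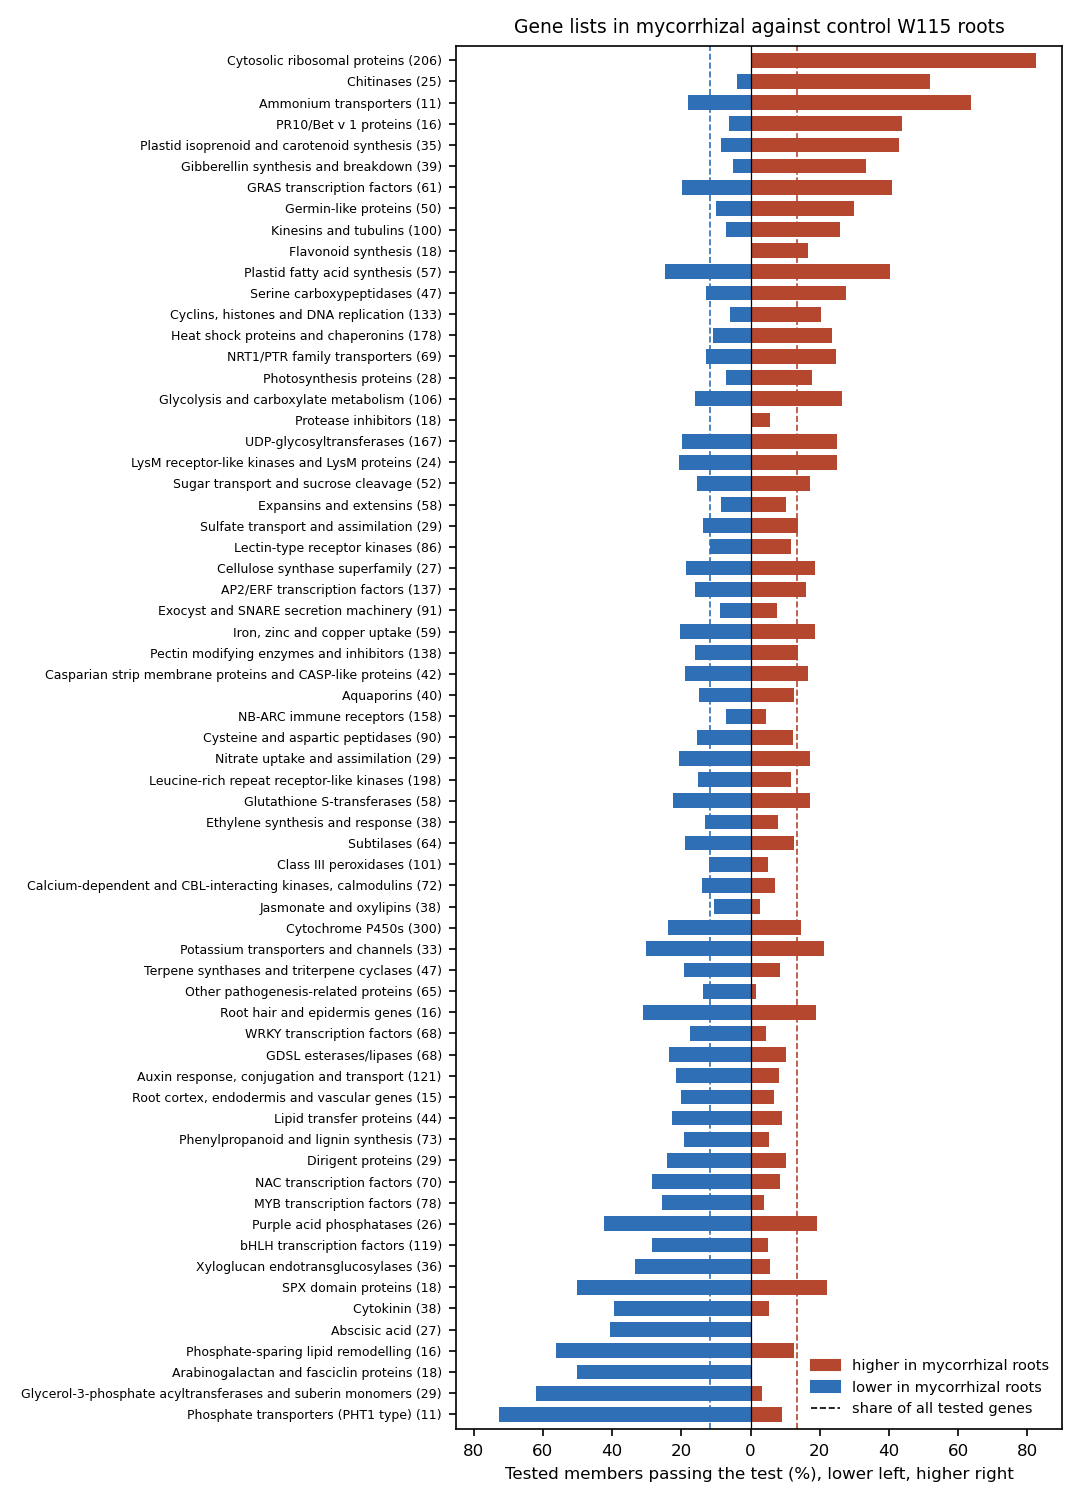
Share of tested members (x axis, %) called lower (left) and higher (right) in mycorrhizal against control roots for each list with at least 10 tested members, whose number stands in parentheses; dashed lines are the shares of all tested genes, 11.7% and 13.5%. Ribosomal proteins lie at the top with 82.5% higher, and PHT1 phosphate transporters (72.7% lower) and suberin genes (62.1% lower) at the bottom.

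The repressed genes were ranked by p among those with an informative description, not an empty one or that of an unknown or hypothetical protein. The 15 with the smallest p (at least 2-fold, at least 100 reads on average in control roots, no overlap) include SPX domain gene 4 and ferritin-2. The vacuolar iron transporter homolog 4, terpene synthase 04 and the potassium transporter gene given above are also among them. EXORDIUM like 2 (Peaxi162Scf01060g00008.1), related to a growth regulator of Arabidopsis, had 153, 163 and 132 CPM in mycorrhizal roots, against 457, 427 and 437 CPM in control roots (log2 fold change −1.56, SE 0.11, adjusted p = 7.50e-05). An aldolase-type TIM barrel gene on the same scaffold (Peaxi162Scf01060g00013.1) had 51.4, 46.7 and 41.1 CPM in mycorrhizal roots, against 131, 148 and 135 CPM in control roots (log2 fold change −1.57, SE 0.11, adjusted p = 6.95e-05). An HXXXD-type acyltransferase (Peaxi162Scf00942g00111.1) had 2.65, 2.00 and 1.75 CPM in mycorrhizal roots, against 19.2, 22.8 and 23.2 CPM in control roots (log2 fold change −3.35, SE 0.18, adjusted p = 1.81e-05). In each of these the control replicates lay close to each other and far above the mycorrhizal ones. A cytochrome b5 isoform B gene (Peaxi162Scf00938g00429.1), an electron donor to lipid desaturases and P450s, had 42.7, 46.2 and 49.6 CPM in mycorrhizal roots, against 111, 114.5 and 114 CPM in control roots (log2 fold change −1.29, SE 0.086, adjusted p = 5.69e-05). Cytosolic sulfotransferase 16 (Peaxi162Scf01650g00036.1) had 31.1, 24.3 and 26.0 CPM in mycorrhizal roots, against 87.3, 85.8 and 74.9 CPM in control roots (log2 fold change −1.61, SE 0.12, adjusted p = 1.03e-04). A Rossmann-fold protein (Peaxi162Scf01039g00130.1) had 15.2, 15.7 and 11.7 CPM in mycorrhizal roots, against 79.8, 58.8 and 59.0 CPM in control roots (log2 fold change −2.22, SE 0.17, adjusted p = 1.25e-04). The other members were an AIG2-like gene (Peaxi162Scf00516g00512.1, −1.07), a ribonuclease H-like gene (Peaxi162Scf00106g00421.1, −1.75), a major facilitator gene (Peaxi162Scf00089g00236.1, −1.43) and an EamA-like transporter (Peaxi162Scf00601g00035.1, −1.37).

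**Figure D5:**
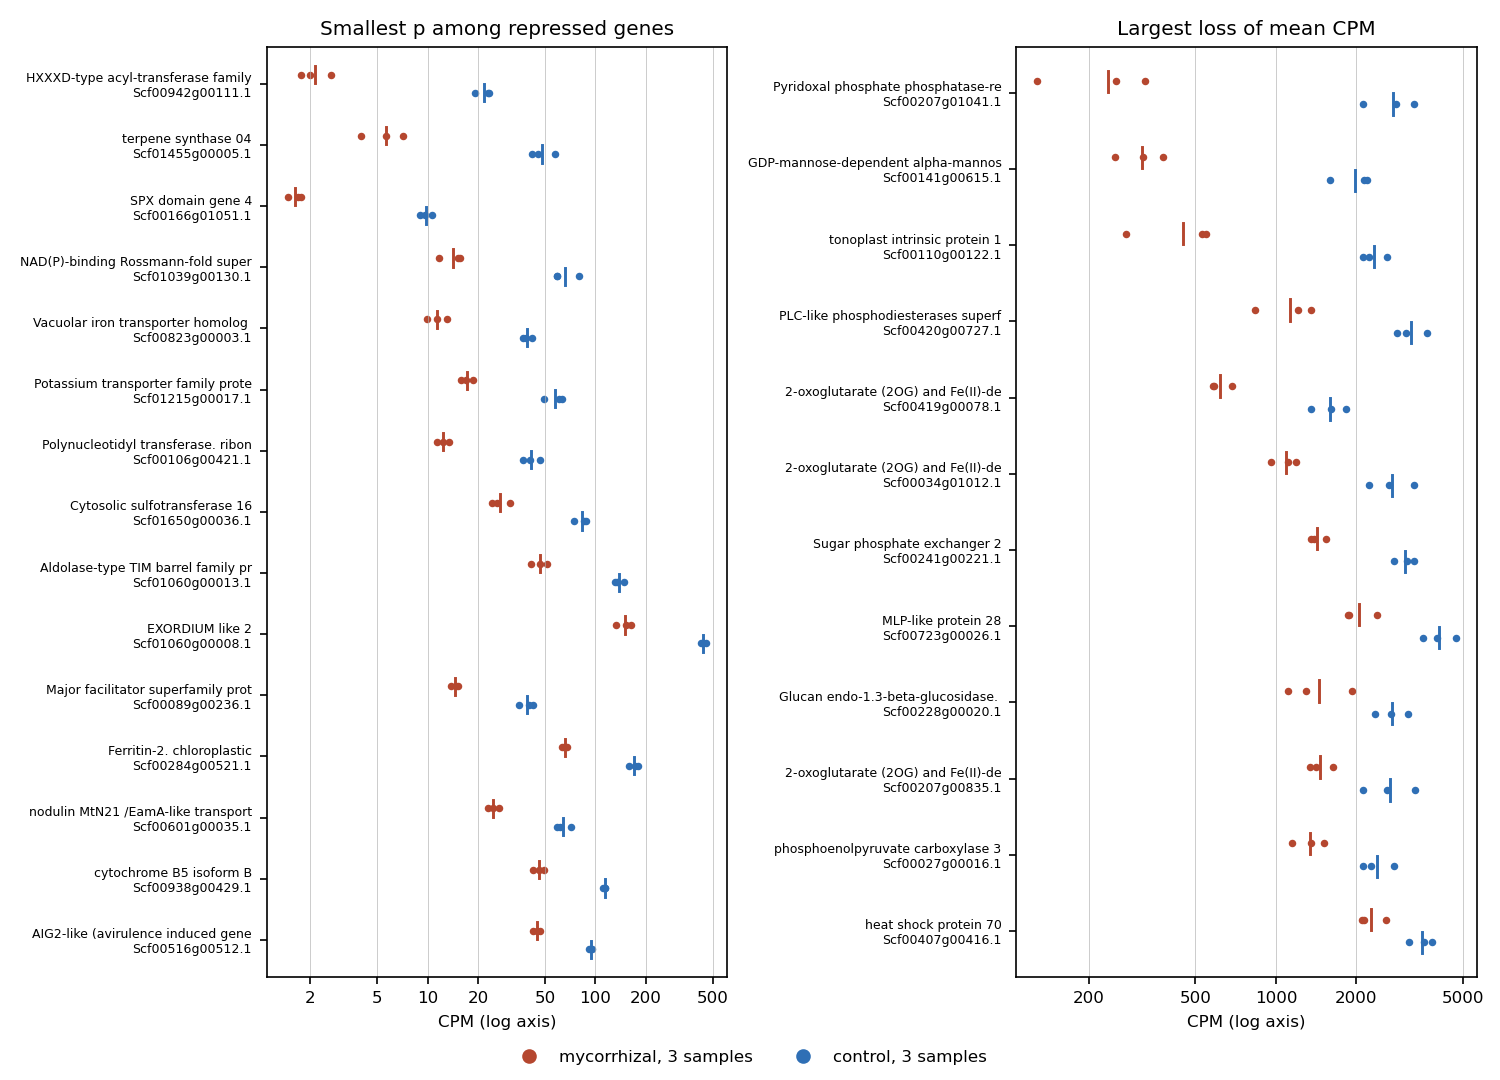
CPM (log axis) in each W115 root library of the 15 repressed genes with the smallest p (left) and of the 12 genes with the largest loss of mean CPM (right). Both sets were ranked among genes with an informative description, and the left set was chosen for groups that do not overlap. Points are samples, mycorrhizal above control, and bars the group means. The mycorrhizal points lie left of the control points in every gene, as in the pyridoxal phosphate phosphatase-related gene (253, 323 and 128 CPM against 3294, 2824 and 2122 CPM).

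To see which of these responses differed in the mutant, the response of ram1 less that of W115 was tested across all genes (edgeR, 4 groups); 969 genes were higher (4.48%) and 1209 lower (5.59%) in that difference. It was read for 58 genes: the symbiosis genes, the 15 repressed genes above and the named phosphate genes. Of these, 34 differed, 23 to the higher and 11 to the lower side, and since most were chosen for a strong W115 response, the counts are a description. The paper used nurse plants to bring colonisation of the lines to comparable levels. It still reports a smaller share of fungal reads, a lower mean colonisation and stunted arbuscules in ram1. Genotype and the extent of colonisation therefore cannot be told apart in these differences. SPX domain gene 1 (Peaxi162Scf01269g00014.1) had 880.4 ± 176 CPM in mycorrhizal and 764 ± 144 CPM in control roots of ram1 (SD, n = 3 each), log2 fold change 0.20, and the response of ram1 less that of W115 was 2.64 (SE 0.31, adjusted p = 5.89e-04). Monogalactosyldiacylglycerol synthase 2 (Peaxi162Scf00088g00096.1) had 319.7 ± 45.2 CPM in mycorrhizal and 316 ± 42.0 CPM in control roots of ram1 (SD, n = 3 each), log2 fold change 0.017, and the response of ram1 less that of W115 was 1.96 (SE 0.25, adjusted p = 0.00107). Purple acid phosphatase 17 (Peaxi162Scf00171g00924.1) had 279 ± 38.6 CPM in mycorrhizal and 389 ± 17.6 CPM in control roots of ram1 (SD, n = 3 each), log2 fold change −0.48, and the response of ram1 less that of W115 was 1.98 (SE 0.34, adjusted p = 0.00534). The rising SPX domain gene 1 copy (Peaxi162Scf00944g00034.1) had 53.4 ± 11.4 CPM in mycorrhizal and 42.0 ± 3.81 CPM in control roots of ram1 (SD, n = 3 each), log2 fold change 0.34, and the response of ram1 less that of W115 was −3.46 (SE 0.30, adjusted p = 7.07e-05). The PHT1 gene Peaxi162Scf00018g00203.1 had 33.9 ± 29.7 CPM in mycorrhizal and 33.5 ± 27.6 CPM in control roots of ram1 (SD, n = 3 each), log2 fold change −0.008, and the response of ram1 less that of W115 was 3.31 (SE 0.93, adjusted p = 0.0481). For PHT1 genes Peaxi162Scf00006g00443.1 and Peaxi162Scf00006g00445.1 the difference did not pass (1.55 and 0.84). In control roots the ram1 mean lay below every W115 value for these PHT1 genes (33.5 CPM for the first, 8.28 and 3.63 CPM for the pair). For the rising SPX domain gene 1 copy it lay above every W115 control value. The responses of the lines thus start from unequal levels in these genes, and the control levels were not tested against each other. The number of differing genes depended on single libraries: of 2178, it was 1400 and 1329 without W115 mycorrhizal replicate 1 or 2, and 1325 and 3359 without ram1 control replicate 2 or 3.

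The label root was checked against marker lists. The summed level of the 21 root hair and epidermis genes in the annotation was 656 to 724 CPM in mycorrhizal and 645 to 666 CPM in control roots, and that of 22 cortex, endodermis and vascular genes 291 to 327 and 303 to 374 CPM. Members of both lists went to both sides. Of 16 tested genes of the first list, 3 were higher and 5 lower (median log2 fold change −0.15). It had 1 to 3 lower without M1 to M3, C2 or C3 or in the joint model, and the order reversed in 2 of 14 alternatives. Of 15 tested genes of the second, 1 was higher and 3 lower (median −0.42). It had 2 higher in the joint model or without the filter, and 1 lower without M1 to M3, C2 or C3. Genes of photosynthesis proteins summed to 434.5 to 515 CPM in mycorrhizal and 244.5 to 292.8 CPM in control roots, of which a RuBisCO large subunit-binding chaperonin (Peaxi162Scf00115g01117.1) held 272, 357 and 304 against 161, 132 and 109 CPM. Of 28 tested photosynthesis genes 5 were higher and 2 lower (median log2 fold change 0.005, with at most 1 lower without M1 to M3 or C2 and 4 to 5 lower in the joint model or with DESeq2), and 17 of 107 in the annotation had no read in any library. Their part in the results was not tested. Calls rest on 3 plants a group, and the counting intervals cover counting error only.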

How the data were processed

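Roots of 6 W115 plants were profiled by paired-end Illumina RNA sequencing. The authors mapped the reads to transcripts of Petunia axillaris in CLC Genomics Workbench 9 and deposited counts, as total gene reads, for 32928 gene models (an intact pair counts as 2, a broken pair as 1; whether strand was used is not stated). Reads that match several genes are distributed, so near-identical copies share them (96.9% to 97.5% of reads were unique). Deposited RPKM values, which the authors computed from these counts per gene length and library size, and the columns of their own comparison (fold changes of proportions and corrected p-values) were not used here. Genes with a mean of at least 10 reads in either group were tested with edgeR 4.0.16 (R 4.3.3, TMM, quasi-likelihood F test, Benjamini-Hochberg over all tested genes, threshold 0.05); SEs of log2 fold changes were taken as the absolute value over the root of the F statistic. The difference between genotypes was fitted on all 12 libraries. CPM are TMM-scaled. Where control roots had 0 reads, bounds assume 3 reads in that group, and 95% intervals are exact. DESeq2 1.42.0 was an alternative.

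The 70 gene lists were matched on annotation text and trimmed on it, and lists and members were chosen with earlier results of these data known. Named are the symbiosis genes and in each list up to 3 genes a direction with the smallest p and a mean of at least 50 reads. Also named are the 15 genes a direction with the smallest p (at least 2-fold, 100 reads, no overlap) and the 12 largest gains and losses of mean CPM. Both of these rankings left out genes with no description or with that of an unknown, hypothetical, uncharacterised or predicted protein. The text describes a selection of the named genes. The procedure was tested on simulated data.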

Additional observations from a re-analysis of the deposited data

Results flagged for a closer look

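In 34 of the 58 genes read, the response of ram1 roots to the fungus differed from that of W115 roots in edgeR's test of the difference itself (adjusted p below 0.05, n = 3 libraries a group). Each value below is the log2 fold change in ram1 less that in W115. A positive value of a gene that fell in W115 thus means a smaller fall, none or a rise in ram1. Genotype and the extent of colonisation, lower in ram1 by the share of fungal reads, cannot be told apart in these values. In some genes the control levels of the lines were also unequal, as given in the report.

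Among the symbiosis genes the difference was −4.04 for RAM1 (Peaxi162Scf00420g00650.1), −4.89 for PT4 (Peaxi162Scf00618g00532.1), −10.15 for AMT2 (Peaxi162Scf00341g00514.1), −5.13 for STR2B (Peaxi162Scf00378g00624.1) and −3.19 for MAP70-5 (Peaxi162Scf00008g00212.1). On the positive side it was 0.71 for CASTOR (Peaxi162Scf00883g00321.1) and 0.99 for MAX2-B (Peaxi162Scf00469g00034.1), and in W115 CASTOR lost its call in 9 of 14 alternatives and MAX2-B passed only in 1 model of all 12 libraries. In ram1 CASTOR was higher in mycorrhizal than in control roots (log2 fold change 0.43, adjusted p = 0.0201 by edgeR). Among arbuscule and accommodation genes the difference did not pass for RAM2, STR (−4.63), EXO84 (−2.48), VAPYRIN (−0.90), STR2A (−0.63) or EXO70i (0.12). RAM2 had no control read in either line, so its difference could not be estimated. Mycorrhizal roots of ram1 had means of 0.553 CPM of RAM2 and 8.48 CPM of STR, against 286 and 208 CPM in those of W115.

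Of the phosphate genes that fell in W115, the difference was 2.64 for SPX domain gene 1 (Peaxi162Scf01269g00014.1), 1.20 for SPX domain gene 2 (Peaxi162Scf00073g01422.1) and 2.14 for SPX domain gene 4 (Peaxi162Scf00166g01051.1). It was 1.98 for purple acid phosphatase 17 (Peaxi162Scf00171g00924.1), 2.14 for phosphatase 6 (Peaxi162Scf00007g01627.1) and 0.82 for phosphatase 26 (Peaxi162Scf00088g01026.1), and 2.91 for phospholipase C4 (Peaxi162Scf00245g00317.1), 1.96 for monogalactosyldiacylglycerol synthase 2 (Peaxi162Scf00088g00096.1) and 0.74 for digalactosyldiacylglycerol synthase 2 (Peaxi162Scf00008g01718.1). For the PHT1 gene Peaxi162Scf00018g00203.1 it was 3.31. Of those that rose in W115, it was −3.46 for SPX domain gene 1 (Peaxi162Scf00944g00034.1) and −4.14 for another SPX domain gene 1 (Peaxi162Scf00062g00136.1), −3.21 for phosphatase 24 (Peaxi162Scf00309g00120.1), −1.39 for phosphatase 27 (Peaxi162Scf00074g00154.1) and −0.96 for phosphatase 29 (Peaxi162Scf00086g01413.1), and −0.89 for a second monogalactosyldiacylglycerol synthase 2 (Peaxi162Scf00045g01930.1).

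Among the repressed genes with the smallest p, the difference was 2.95 for terpene synthase 04 (Peaxi162Scf01455g00005.1), 2.39 for cytosolic sulfotransferase 16 (Peaxi162Scf01650g00036.1), 2.13 for the Rossmann-fold gene (Peaxi162Scf01039g00130.1), 1.92 for the potassium transporter gene (Peaxi162Scf01215g00017.1), 1.84 for the HXXXD-type acyltransferase (Peaxi162Scf00942g00111.1) and 1.81 for the major facilitator gene (Peaxi162Scf00089g00236.1). It was 1.70 for vacuolar iron transporter homolog 4 (Peaxi162Scf00823g00003.1), 1.64 for the EamA-like transporter (Peaxi162Scf00601g00035.1), 1.54 for EXORDIUM like 2 (Peaxi162Scf01060g00008.1), 1.21 for ferritin-2 (Peaxi162Scf00284g00521.1) and 1.09 for the aldolase-type gene (Peaxi162Scf01060g00013.1). These genes were selected for a strong fall in W115, and the libraries that decided the number of differing genes are named in the report.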

How the results depend on the processing

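Each count was recomputed under 14 alternatives, of which 6 left out a library. With other size factors, library totals only, other read filters, unique reads, DESeq2, 1 model of all 12 libraries or the replicate number as a block, 4201 to 5764 genes passed. Leaving out each replicate in turn gave 3352 to 4813 genes, of them 1959 to 2610 higher and 1393 to 2203 lower, 1174 to 1360 at least 2-fold higher, 654 to 925 at least 2-fold lower, 645 to 686 at least 5-fold higher and 95 to 197 at least 5-fold lower. The lowest counts of all, higher and lower genes came without mycorrhizal replicate 2. For the response in ram1 against that in W115 it gave 1325 to 3359 genes. In all 14 alternatives, 1751 higher and 1093 lower genes kept their call and direction, and 0 had a call in the opposite direction in any. Of 397 genes covered by the naming rule, 57 lost a call in at least 1 alternative. The value of MAX2-A (Peaxi162Scf00384g00211.1), which did not pass, was −0.15 without control replicate 2 and changed sign to 0.024 without control replicate 3, the ends of its range when 1 library is left out. The cause was not tested.

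The labels number the replicates of both groups 1 to 3, but nothing says that a number marks a shared batch. Deviations of same-numbered libraries from their group means correlated at −0.088, 0.046 and −0.046, and those of unlike-numbered libraries at −0.055 to 0.086. With 3 libraries a group these values cannot decide whether a number marks a shared batch. With the replicate block, 4201 genes passed (2287 higher, 1914 lower), and 1529 in the test against ram1. In simulated counts of this comparison with 3 libraries a group, 60 of 100 genes changed 2-fold and 96 of 100 changed 5-fold were called, with 12 calls among 21446 unchanged genes. For the difference between genotypes, 26 of 100 and 82 of 100 were called. A far smaller share of genes changed in the simulation than passed in the data (25.2%), which makes the adjusted threshold stricter. The changed genes were also drawn from better-read ones. These shares therefore do not give how many 2-fold changes were missed in the data.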
